A study of Papaver somniferum with 4 samples.

Results

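The 110 sequences described here were repeatedly among the brightest on a poppy oligonucleotide array, out of 95608 sequences measured. Members were chosen by brightness alone: a sequence was marked on an array when its intensity was at or above that array's 99th percentile, and it was a member when marked on 3 or more of 12 arrays. Because these intensities chose the members, their levels are given as a description, with no test. Only the reading of arrays that were left out of the choice goes beyond it. The comparisons between groups use the same intensities as the rule, so their p-values are given to describe the members and not as independent evidence.

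The arrays carried Cy3-labelled total RNA from greenhouse plants of the opium poppy cultivar Ofis 95 (Papaver somniferum), treated after flowering. Control plants were sprayed with ethanol and 0.1% Triton X-100, a detergent. Whether they were also pricked is not stated. The plants of the 0, 3 and 12 h groups were pricked with sterile pins on leaves, stem and capsule, sprayed with 100 µM methyl jasmonate in the same solvent, and taken 0, 3 or 12 h later. Each group is 1 sample with 3 array files, 12 arrays of 1 slide in all, named here by slide position: 1 to 3 for the control, 4 to 6 for 0 h, 7 to 9 for 3 h and 10 to 12 for 12 h. Nothing states that the arrays of a group carry RNA of separate plants, so the spread between them may be technical. The tissue is given as leaves and fruits in one label and as capsule in another, and it could not be checked against marker genes because no sequence has a gene name here.

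Opium poppy makes morphine, codeine, noscapine and related benzylisoquinoline alkaloids, which collect in the latex of its capsule and stem. Methyl jasmonate is a volatile ester of the plant hormone jasmonic acid, and wounding and jasmonate are both known to switch on defence metabolism in plants. On an oligonucleotide array a bright spot can come from an abundant transcript, and a single probe also depends on its own base composition and on cross-hybridisation, so brightness does not rank transcripts against each other. Probes of random sequence, which match no poppy transcript by design, give the level to be expected without a target.

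None of the 110 members could be named. The array files give identifiers with no annotation beside them, and 0 of the members matched an identifier of the 91581 genes in the RefSeq table of assembly ASM357369v1. Probe letters were not used here, so no sequence is shown. Of the members, 25 are expressed sequence tags (ESTs, single-pass reads of cDNA clones) and 85 are numbered reads of a sequencing run, named below by read number. ESTs made up 22.7% of the members and 20.0% of all sequences, so both sources were present in nearly the proportion in which they were spotted. Among sequences marked on 1 array and on 2 arrays, 19.7% and 18.4% were ESTs. By accession prefix, 19 of the EST members were FG, 4 were FE, 1 was EB and 1 was GO.

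The authors' deposited table, which holds a log2 value for each sample, combined the arrays in another way than GEO assigns their files. The column for the control was matched by arrays 1, 5 and 9, its 0 h column by arrays 2, 3 and 4, its 3 h column by arrays 6, 7 and 8, and its 12 h column by arrays 10, 11 and 12, with differences of at most 0.0805 log2 units for any sequence. The labels do not settle which assignment is right. Groups below follow the files.

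Most members only just met the rule. On 85191 sequences no array was marked, on 9512 a single array and on 795 a pair of arrays. Of the members, 81 were marked on 3 arrays, 21 on 4, 3 on 5, 3 on 6 and 2 on 11, and none on any other number. The members therefore hold 382 of the 11484 marks, or 3.33%. At the limit, read 56046 was inside with 1675 on array 11, where the threshold was 1674, and read 38381 was outside with 1537 on array 6, where it was 1540. The other sequences next to the limit were EST EB389054 and read 38851 inside, at 1574 and 1575 on array 1 against a threshold of 1572. Outside it were read 82372, at 1567 on array 1, and EST FG603213, at 1918 on array 12 against 1926.

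Array 10 of the 12 h group stood apart. Its 99th percentile was 6361, or 4.15 log2 units above its median, while the thresholds of the other arrays lay between 1500 and 1926, or 1.75 to 2.22 log2 units above their medians. It marked 1 member, and the other arrays marked 13 to 64. Leaving array 10 out kept 109 of the 110 members. Array 6 of the 0 h group carried the most marks, on 64 members, and without it 68 members remained. Requiring 4-fold over the random probes on 3 arrays in place of the percentile, an alternative chosen after seeing array 10, gave 175 sequences, 89 of them members.

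**Figure D1:**
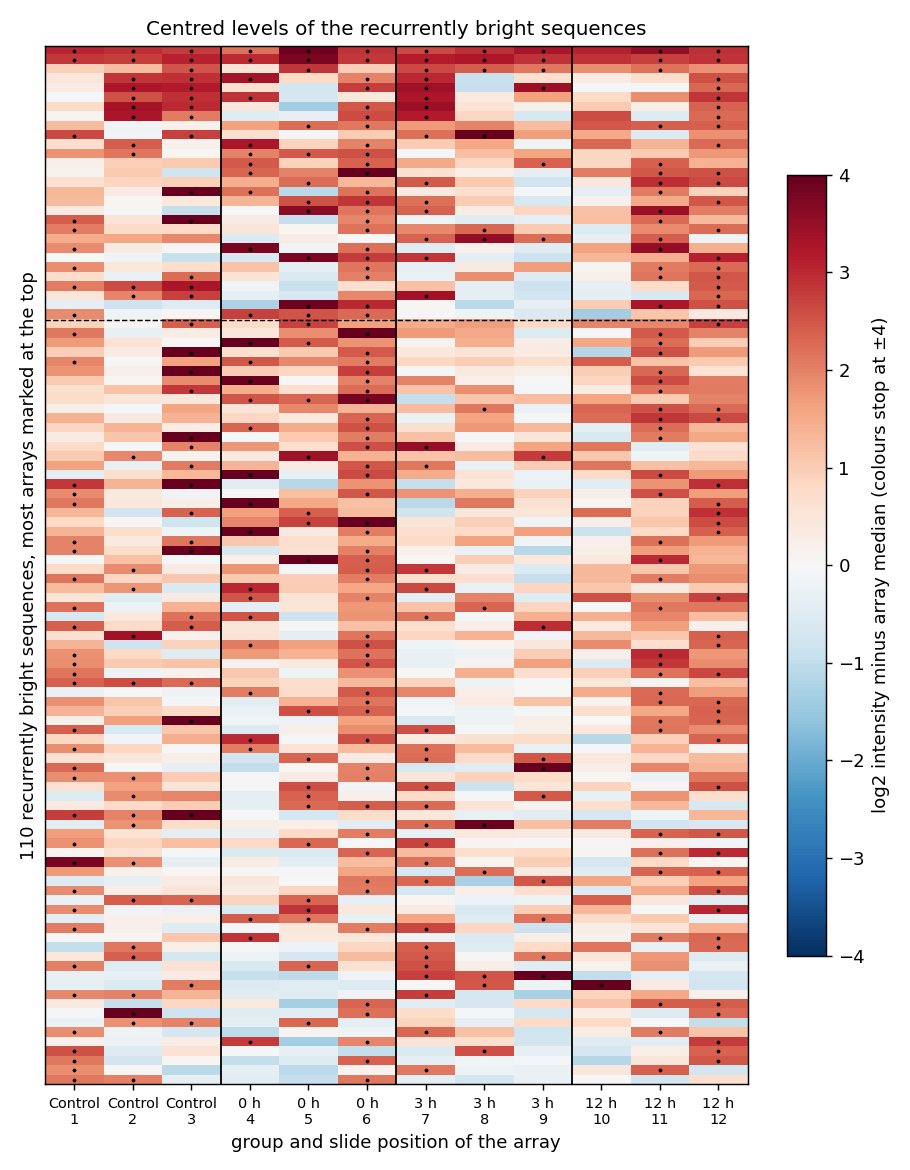
Log2 intensity minus the array median for the 110 recurrently bright sequences (lines) on the 12 arrays (columns, by group and slide position), with a dot where the sequence was marked and a dashed line under the 29 marked on 4 or more arrays. The 2 ESTs at the top are dark red on all 12 arrays, and the lines below them are red on a few arrays and pale or blue on the others.

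The members were bright on the arrays that marked them and unremarkable on many of the others. Levels are given from here on as log2 intensity minus the array's median, which lay within 0.018 log2 units of the random probes on each array. Averaged over the 12 arrays, a member's level ran from 0.26 to 3.00, with a median of 1.11. On the arrays that did not mark it, the median member stood at the 71.2nd percentile of all sequences, with a range over members from the 23.4th to the 97.7th. On each array 49.9% to 51.1% of all sequences lay above the random probes, and the rule assures a member of 3 such arrays. Members lay above the random probes on a median of 9.5 arrays and on at least 4. Only 7 members were above them on all 12 arrays, and 2 were at least 2-fold above them on all 12, EST FG602734 and EST FG604964. Among all 95608 sequences, 115 were above the random probes on all 12 arrays, and no sequence but those 2 ESTs was at least 2-fold above on all 12.

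The spread of a member over arrays was wide. The standard deviation over the 12 arrays had a median of 1.17 log2 units for the members, against 0.67 for all sequences, a contrast that the rule itself favours, since 3 bright arrays raise a spread. Only 2 members, the same 2 ESTs, had a smaller spread than the median sequence. EST and read members overlapped in their mean levels, which ran from 0.30 to 3.00 with a median of 0.93 for the ESTs and from 0.26 to 1.84 with a median of 1.15 for the reads. Intensities over 60000, near the top of the scale, occurred 5 times among the members, 3 of them on array 3.

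By group, the median level of the members over the random probes was 0.88 ± 0.37 log2 units (SD, n = 3 arrays here and in the other groups) in the control, 1.05 ± 0.85 for 0 h, 0.59 ± 0.32 for 3 h and 1.38 ± 0.81 for 12 h. Within 0 h and within 12 h the arrays differed by more than the group means did. In the control the 3 arrays stood at 1.28, 0.56 and 0.80. At 0 h they stood at 0.53, 0.59 and 2.03. The 0 h mean was thus carried by array 6, and it was 0.56 without it. At 3 h the arrays stood at 0.96, 0.44 and 0.37, and at 12 h at 0.45, 1.72 and 1.95. The 3 highest arrays, at positions 6, 12 and 11, were those that marked most members. The rule favours this, since a mark is given for brightness, and how far it accounts for it was not tested.

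In bulk tissue, a lower level of a transcript per cell and fewer cells that hold it cannot be told apart. The share of members at least 2-fold over the random probes was 45.2% ± 8.64 (SD, n = 3 arrays, as for the other groups) for the control, 52.1% ± 23.4 for 0 h, 36.4% ± 12.2 for 3 h and 60.6% ± 22.6 for 12 h. Among all sequences it was 8.85% ± 1.44 for the control, 11.2% ± 4.27 for 0 h, 12.0% ± 0.917 for 3 h and 14.7% ± 3.50 for 12 h. The lowest group was thus 3 h for the members and the control for all sequences.

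Recurrence could be read without the circularity of the rule by choosing on some arrays and reading on others. When each array was left out in turn, 68 to 109 sequences were marked on 3 or more of the other 11, and on the array left out 13.8% ± 8.57 of them were marked (mean ± SD over 12 arrays), against 1% of all sequences. The choices for different arrays share most of their sequences, so the 12 values are not independent. Without EST FG602734 and EST FG604964, 117 of 1053 readings were marked, or 11.1%.

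The array left out mattered. The share was 11.4%, 11.8% and 15.4% on control arrays 1, 2 and 3. It was 12.0%, 12.0% and 32.4% on 0 h arrays 4, 5 and 6, and 17.0%, 5.83% and 5.94% on 3 h arrays 7, 8 and 9. On 12 h arrays it was 0% at position 10, with 0 of 109 marked, and 18.8% and 23.5% at positions 11 and 12. With only the array itself left out of the choice, arrays 6, 11 and 12 thus had the highest shares. The median level of the chosen sequences there was 1.43, 1.07 and 1.53 log2 units over the array median, against 0.24 to 0.66 on the other 9 arrays, array 10 included at 0.44.

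The same was done with whole samples left out. Sequences marked on 3 or more of the 9 arrays of the other samples numbered 53 when the control was left out, 38 for 0 h, 76 for 3 h and 54 for 12 h. Of these, 15.7% ± 3.93 (SD, n = 3 arrays, likewise below) were marked on the control arrays, 15.8% ± 9.12 on those of 0 h, 9.65% ± 6.49 on those of 3 h and 13.6% ± 12.3 on those of 12 h. These shares exceeded the 1% of all sequences on 11 of the 12 arrays, array 10 being the exception, and the groups overlapped. Arrays 6 and 12 again had the highest shares, at 26.3% and 24.1%. Array 11, at 16.7%, was now below arrays 3, 7 and 2, at 18.9%, 17.1% and 17.0%.

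**Figure D2:**
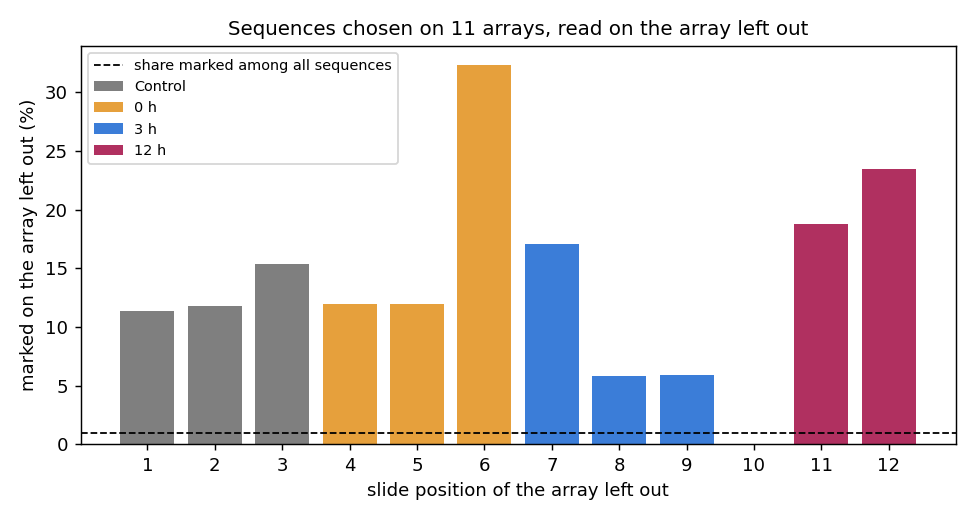
Share (%) of the sequences marked on 3 or more of 11 arrays that was also marked on the array left out, by the slide position of that array, coloured by group, with the share marked among all sequences as a dashed line. The bars at positions 6, 12 and 11 are the highest, at 32.4%, 23.5% and 18.8%, and the bar at position 10 is at 0%.

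The rule counts arrays without asking which, so the combinations in which arrays marked the members were free to vary. A pair of arrays shared 8.39 marked members on average over the 66 pairs. Arrays 6 and 11 shared 31, as did arrays 6 and 12, each pair joining 0 h with 12 h, and arrays 4 and 6, both of 0 h, shared 21. Pairs from the same sample shared 9.5 members on average over 12 pairs, against 8.15 for the 54 pairs from different samples. Without array 10 the means were 11.4 over 10 pairs and 9.73 over 45 pairs. Over all marked sequences, members or not, the means were 22.4 for pairs of the same sample and 20.0 for the others. No p is given, since the members were chosen on the same marks.

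**Figure D3:**
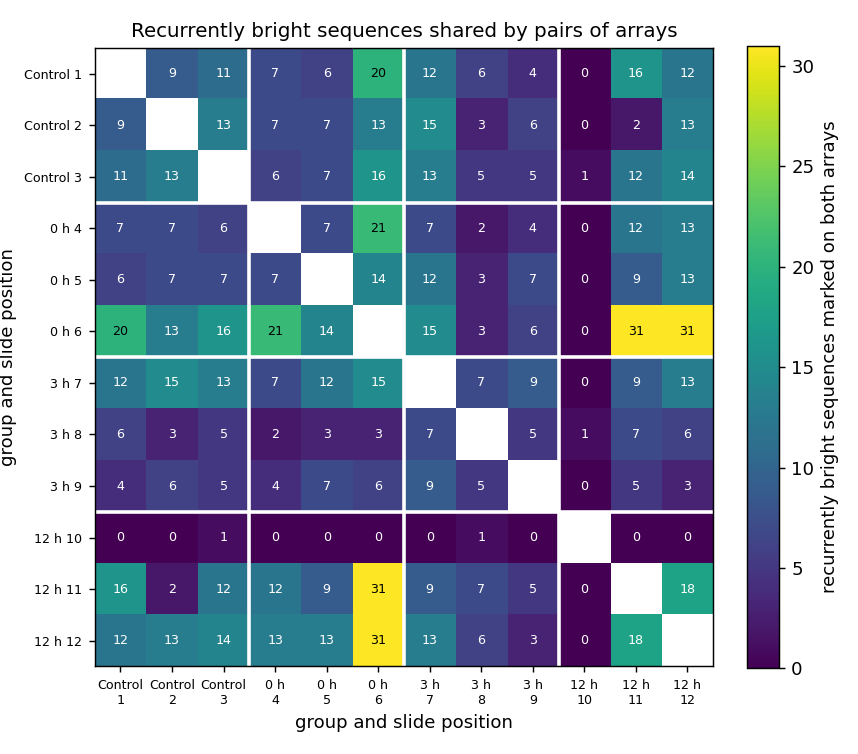
Number of the 110 recurrently bright sequences marked on both arrays of a pair (cell value and colour), with arrays in order of slide position and white lines between groups. The highest cells, at 31, join 0 h array 6 with 12 h arrays 11 and 12, the arrays of a group form no block of their own along the diagonal, and array 10 shares at most 1 with any other.

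Of the 110 members, 4 were marked in a single group, 48 in 2 groups, 49 in 3 and 9 in all 4. The rule keeps the first count low, since a member needs 3 marks and a group has 3 arrays. The 29 members marked on 4 or more arrays could not be marked in a single group. Whether members followed the groups is therefore not read from these counts. Beside the 2 recurrent ESTs, 3 members were marked on all 3 arrays of the control, EST FG602417 and reads 57366 and 61893. At 0 h these were reads 51087, 76273 and 80470, and at 3 h EST FG605463 and reads 57426 and 91505. At 12 h no member was marked on all 3 arrays, where array 10 marked 1 member in all. The 4 members marked in a single group were EST FG602417 and read 57366 in the control, read 76273 at 0 h and EST FG605463 at 3 h.

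EST FG602734 and EST FG604964 were the steadiest and the brightest of the members. FG602734 stood at 2.83, 2.76 and 3.09 log2 units in the control, at 2.97, 3.76 and 2.83 at 0 h, at 3.13, 3.22 and 2.90 at 3 h and at 2.89, 2.73 and 2.89 at 12 h. FG604964 stood at 3.04, 2.91 and 2.81 in the control, at 2.17, 3.88 and 2.90 at 0 h, at 2.64, 2.94 and 3.26 at 3 h and at 3.10, 3.51 and 2.91 at 12 h. In none of the 5 comparisons made below did the groups stand apart for either EST, and the highest value of each was on 0 h array 5. Both averaged close to 8-fold over the random probes, at 8.05-fold for FG602734 and 8.08-fold for FG604964. Their standard deviations over 12 arrays were 0.28 and 0.43, and the next member had 0.75. The next brightest member, read 57426, averaged 1.84. Neither was marked on array 10, although their levels there, 2.89 and 3.10, were like those on the other arrays, because the threshold of that array was at 4.15.

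The span between the highest and the lowest group mean was 0.35 log2 units for FG602734 and 0.25 for FG604964, and the test of any difference between groups gave adjusted p-values of 0.984 for the first and 0.9947 for the second in limma. A p that misses the threshold does not show that the levels were alike. In the authors' deposited table the same ESTs spanned 1.54 and 1.502. There FG602734 was at 13.42 for the control, 12.26 for 0 h, 12.69 for 3 h and 11.89 for 12 h. FG604964 was at 13.68 for the control, 12.18 for 0 h, 12.29 for 3 h and 12.45 for 12 h. Quantile normalization of the 12 arrays, which forces 1 distribution on arrays whose upper ends differ, spread FG602734 from 10.38 on array 10 to 14.17 on array 5, and FG604964 from 10.48 to 14.26 on the same arrays. The standard deviations over arrays became 1.013 and 1.19, against 0.28 and 0.43 after centring. Of the 110 members, 100 had a larger spread after quantile normalization, and the median spread was 1.44, against 1.17 after centring.

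Read 57426, marked on 6 arrays, came next in steadiness. It stood at 0.97, 1.24 and 2.53 in the control, at 0.54, 2.86 and 0.97 at 0 h, at 2.63, 2.41 and 2.10 at 3 h and at 1.85, 2.16 and 1.83 at 12 h. It was above the random probes on all 12 arrays, and its groups overlapped in the same 5 comparisons. The test of any difference gave an adjusted p of 0.938.

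A further set of members shared arrays from several groups. Arrays 2, 3, 7 and 12 all marked 8 members, the most of any 4 arrays: the 2 recurrent ESTs, EST FG607427 and reads 1088, 3887, 65895, 74948 and 87245. These arrays belong to the control, 3 h and 12 h. The set was picked by these marks, so only the other 8 arrays add to its description. On 0 h array 6, the 6 members without the recurrent ESTs had a median of 2.22, with a lowest value of 0.47. On arrays 1, 4, 5, 8, 9, 10 and 11 the medians of the 6 lay between -0.68 and 0.55. Single members stood above 1.5 on these: reads 65895 and 87245 on array 4, at 3.33 and 2.89, reads 3887 and 87245 on array 9, at 3.41 and 1.59, read 74948 on array 10, at 2.60, and read 87245 on array 11, at 1.86.

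Reads 3887 and 65895, each marked on 6 arrays, illustrate the pattern. Read 3887 stood at 0.32, 3.23 and 3.17 in the control, at 0.64, -0.74 and 2.77 at 0 h, at 3.39, -0.92 and 3.41 at 3 h and at -0.06, -0.06 and 2.29 at 12 h. In each group it was high on some arrays and near or below the median on others, and no group stood apart. Read 65895 stood at 0.44, 2.87 and 2.93 in the control, at 3.33, 0.80 and 1.97 at 0 h, at 3.00, -0.90 and 0.64 at 3 h and at 0.33, 0.70 and 2.53 at 12 h. The test of any difference gave adjusted p-values of 0.935 and 0.938 for the 2 reads. Under the deposited table's grouping, which puts arrays 2 and 3 with 0 h and array 7 with array 6, the picture of these 6 members was another. Relative to each column's median, read 1088 was in the authors' deposited table at -0.07 for the control, 3.02 for 0 h, 3.03 for 3 h and 1.14 for 12 h. Over the 6 members, the authors' deposited table gave -0.32 to 1.29 for the control, 1.76 to 3.68 for 0 h, 1.91 to 3.12 for 3 h and 0.45 to 2.16 for 12 h. With the arrays grouped in that way, limma called 0 members in each of the 5 comparisons and in the test of any difference.

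**Figure D4:**
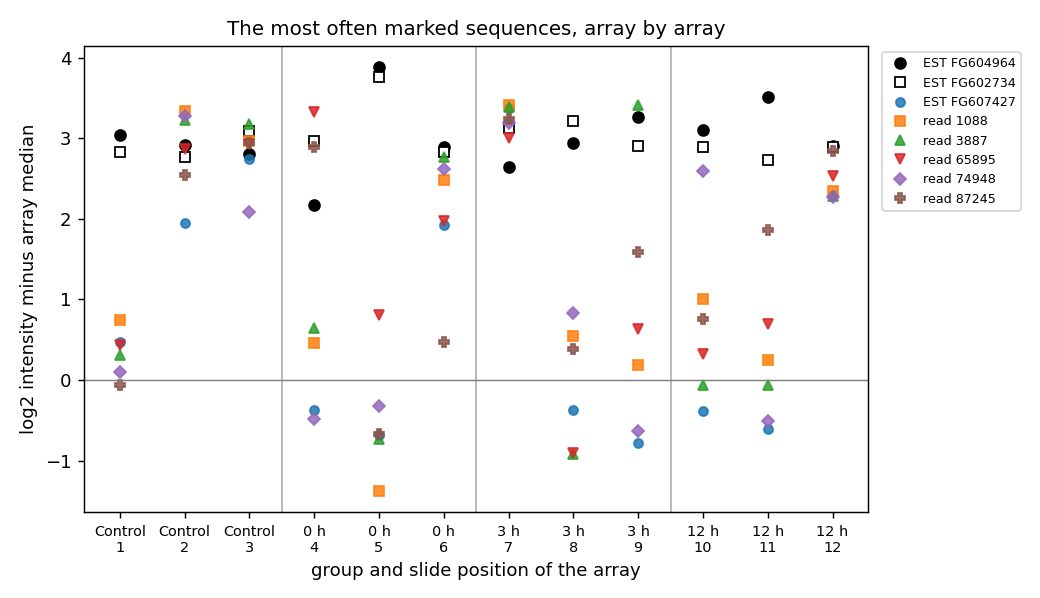
Log2 intensity minus the array median (vertical axis) by group and slide position (horizontal axis) for the 2 ESTs marked on 11 arrays, in black, and for the 6 further sequences marked on arrays 2, 3, 7 and 12, in colour. The ESTs keep between 2.17 and 3.88 on all 12 arrays, and the 6 others are at 1.95 or above on arrays 2, 3, 7 and 12 and spread from -1.38 to 3.41 on the rest.

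In 3 comparisons the groups of 0, 3 and 12 h were set against the control, and 2 more set 3 h and 12 h against 0 h. The labels give no time for the control, and whether it was pricked is not stated. Methyl jasmonate, pricking and time therefore cannot be told apart in the comparisons with the control. The fit used all 95608 sequences and the threshold was an adjusted p of 0.05. The median standard error of a member's difference was 0.71 log2 units, so its 95% interval reached 1.47 to either side, or 2.77-fold. The median spread of a member within a group was 1.16 log2 units, against 0.66 for all sequences, and the moderated fit draws each spread toward 0.68. For the members with wider spreads than that, the p-values are therefore based on smaller spreads than their own. The reverse holds for members with narrower spreads, such as EST FG602417 (0.44), read 61159 (0.45), EST FG602734 (0.28) and EST FG604964 (0.49). The rule also asks for 3 or more very bright arrays. This can raise the counts of small unadjusted p-values and of 2-fold differences among the members, by an amount that was not measured. Nothing is therefore read from any excess of these counts over all sequences. For the 4 members marked in a single group, EST FG602417, EST FG605463 and reads 57366 and 76273, the difference between groups is what admitted them. The limit is not confined to these. Reads 61893, 80470 and 91505 had 3 of their 4 marks on the arrays of the group where they were high. Reads 36076, 61159 and 75609 had all their marks on arrays of 0 h and 12 h. The 3 comparisons with the control share its arrays, as the last 2 share those of 0 h.

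At 0 h no member passed against the control. limma called 0 of 110 members and 0% of all sequences (lowest adjusted p = 0.9999), and at an unadjusted p under 0.05 it gave 28 members, or 25.5%, against 3.26% of all sequences. The 3 arrays of 0 h lay above those of the control for 12 members and below for 5, or 10.9% and 4.55%, against 5.13% and 4.89% of all sequences. At least 2-fold, 27 members were higher and 22 lower, or 24.5% and 20.0%, against 3.36% and 3.1% of all sequences. Without centring, where the median sequence differed by -0.20, 20 were higher and 25 lower. Shares of all sequences were not counted under the other scalings, here and below, so nothing is read from these member counts alone. The median difference of the members was 0.11, against 0.01 for all sequences, and it was -0.09 without centring and -0.18 with slide position as a covariate. Each group fills neighbouring slide positions, so position and group largely run together, here and below. Values with that covariate rest on the trend within groups and cannot separate position from group well.

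Read 36076 had the highest moderated t, at 1.96, 2.71 and 4.24 at 0 h, against 0.80, 0.04 and -0.81 in the control. Its arrays did not overlap, and the difference was 2.96 ± 0.64 (SE, adjusted p = 0.9999 in limma). Read 75609 stood at 2.33, 2.0 and 4.27 at 0 h, against 0.14, 1.03 and -0.80 in the control, a difference of 2.74 ± 0.60. In both reads array 6 was the highest of the 0 h arrays. At the other end, read 57366 stood at 0.02, -0.71 and 0.75 at 0 h, against 2.77, 1.97 and 5.28 in the control, a difference of -3.32 ± 0.69. Read 61893 stood at -0.13, -0.89 and 0.67 at 0 h, against 2.04, 2.62 and 3.28 in the control, a difference of -2.76 ± 0.66. All 4 had an adjusted p of 0.9999 and arrays that did not overlap. In the authors' deposited table, with its other arrays, the sign was turned for read 57366, at 0.89, for read 61893, at 1.97, and for read 36076, at -1.06.

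At 3 h, again, limma called 0 of 110 members and 0% of all sequences, and the lowest adjusted p was 0.915. At an unadjusted p under 0.05 there were 18 members, or 16.4%, against 4.33% of all sequences. The arrays of 3 h lay above those of the control for 5 members and below for 10, or 4.55% and 9.09%, against 5.58% and 5.77% of all sequences. At least 2-fold, 8 members were higher and 19 lower, or 7.27% and 17.3%, against 4.35% and 3.54% of all sequences. Without centring, where the median sequence differed by -0.26, 5 were higher and 27 lower. The median difference of the members was -0.16, and in the authors' deposited table it was 0.40.

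EST FG605463 had the lowest adjusted p of the members at 3 h. It stood at 2.75, 2.52 and 7.37 at 3 h, against -0.30, -0.33 and 0.33 in the control, and the difference was 4.31 ± 0.81 (SE, adjusted p = 0.915 in limma). The third value, on array 9, is over 60000 on the intensity scale, and without that array the difference was 2.73. With slide position as a covariate the difference was -0.45. Read 61159 had the next highest t, at 1.70, 1.98 and 1.25 at 3 h, against 1.26, -0.17 and 0.16 in the control, and its groups overlapped, with a difference of 1.23 ± 0.50. Read 57366 stood at 0.46, -0.31 and -0.46 at 3 h, below its control arrays given above, a difference of -3.44 ± 0.69. EST FG602417 stood at 0.90, -0.21 and -0.01 at 3 h, against 2.38, 2.62 and 2.26 in the control. It differed by -2.19 ± 0.50, with arrays that did not overlap. The adjusted p of these 3 was 0.999.

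At 12 h limma called 0 of 110 members and 0% of all sequences (lowest adjusted p = 0.791). At an unadjusted p under 0.05 there were 18 members, or 16.4%, against 6.12% of all sequences. The arrays of 12 h lay above those of the control for 12 members and below for 4, or 10.9% and 3.64%, against 5.51% and 5.57% of all sequences. At least 2-fold, 24 members were higher and 18 lower, or 21.8% and 16.4%, against 7.77% and 3.46% of all sequences. Without centring, where the median sequence differed by -0.12, 19 were higher and 22 lower. After quantile normalization, where it differed by -0.01, 21 were higher and 23 lower. The median difference of the members was 0.28, but 0.04 after quantile normalization and -1.26 with slide position as a covariate.

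Read 61159 had the highest t at 12 h. It stood at 2.5, 2.39 and 2.40 at 12 h, against 1.26, -0.17 and 0.16 in the control, a difference of 2.01 ± 0.50 (SE, adjusted p = 0.791 in limma). Its value on array 10 was the highest of the 12 h arrays. Read 75609 stood at 2.05, 2.47 and 2.54 at 12 h, against 0.14, 1.03 and -0.80 in the control, a difference of 2.23 ± 0.60. Read 57366 stood at -0.68, -0.16 and 1.33 at 12 h and differed by -3.17 ± 0.69, and EST FG602417 at 0.46, 0.10 and 1.21, with a difference of -1.83 ± 0.50. The arrays of all 4 did not overlap those of the control, and the adjusted p was 0.791 for each. Read 57366 had the lowest t of the members at all 3 times, against the same 3 control arrays. Those arrays are the ones that made it a member, as they did EST FG602417, so its low values of t follow from the choice. Array 3 was the highest of them, at 5.28. Without array 3 its differences were -2.35 at 0 h, -2.47 at 3 h and -2.21 at 12 h.

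Within the treated plants, 3 h against 0 h came nearest to a call. limma called 0 of 110 members and 0% of all sequences (lowest adjusted p = 0.293), and at an unadjusted p under 0.05 there were 22 members, or 20.0%, against 4.96% of all sequences. The arrays of 3 h lay above those of 0 h for 5 members and below for 14, or 4.55% and 12.7%, against 5.11% and 5.37% of all sequences. At least 2-fold, 11 members were higher and 30 lower, or 10% and 27.3%, against 4.73% and 4.26% of all sequences. The median difference of the members was -0.44, and in the authors' deposited table, with its other arrays, it was 0.36.

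EST FG605463 stood at 2.75, 2.52 and 7.37 at 3 h, against -0.94, -1.04 and -0.13 at 0 h, where none of the arrays had it above the random probes. The measured difference was 4.92 ± 0.81 (SE, adjusted p = 0.293 in limma), and once the 0 h values were raised to the random probes, the 3 h mean exceeded them at least 18.7-fold. This bound allows for the background only, and rests in part on array 9, without which the measured difference was 3.34. Arrays 7, 8 and 9, all of 3 h, are what made FG605463 a member, so its p-values test values that selected it. It passed after quantile normalization (adjusted p = 0.00649), with a trended and robust prior, and without array 10, which is in neither group (adjusted p = 0.0350). It did not pass with slide position as a covariate, where the difference was 2.53 (adjusted p = 0.977), or with the deposited table's arrays, where it was 2.02 (adjusted p = 0.99998). The authors' deposited table, which puts array 9 in the control, has it at 2.05 for 3 h, against -0.44 for 0 h, and at 1.71 for the control. At 12 h it stood at -0.97, -0.35 and -0.68, so that, with arrays grouped as in the files, the 3 arrays of 3 h were above the 9 others.

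Read 91505 stood at 2.37, 3.5 and 2.22 at 3 h, against -0.54, 0.34 and 0.00 at 0 h, a difference of 2.77 ± 0.62. Read 80470 went the other way, at -0.09, -0.21 and -0.56 at 3 h, against 2.74, 2.5 and 2.26 at 0 h, a difference of -2.79 ± 0.61. None of the 3 h arrays had it above the random probes, and with its values there raised to the random probes it was at least 5.69-fold lower at 3 h. Arrays 4, 5 and 6 of 0 h were among the 4 that made read 80470 a member, so this bound describes a difference that helped to select it. Read 75609 stood at 0.62, 0.28 and -0.39 at 3 h and differed by -2.70 ± 0.60. Its level thus was 1.03 or less on the arrays of the control and 3 h and 2.0 or more on those of 0 h and 12 h, as the files group them. With the deposited table's arrays the difference of read 75609 had the opposite direction, at 0.87, and it was 1.06 in the authors' deposited table. These 3 had non-overlapping arrays and an adjusted p of 0.972.

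At 12 h against 0 h limma called 0 of 110 members and 0% of all sequences (lowest adjusted p = 0.759). At an unadjusted p under 0.05 there were 7 members, or 6.36%, against 6.41% of all sequences. The arrays lay above for 4 members and below for 3, or 3.64% and 2.73%, against 4.99% and 5.2% of all sequences. At least 2-fold, 15 members were higher and 12 lower, or 13.6% and 10.9%, against 7.57% and 4.03% of all sequences. After quantile normalization, where the median sequence differed by -0.01, 12 were higher and 16 lower. Read 80470 stood at -1.40, 1.12 and 0.37 at 12 h, a difference of -2.47 ± 0.61, and was the only named member of this comparison whose arrays did not overlap. Read 36076 stood at 0.27, 1.07 and 2.61 at 12 h and differed by -1.65 ± 0.64, but by 0.92 with the deposited table's arrays and 1.04 in the authors' deposited table. Read 41915 stood at 2.24, 2.86 and 2.64 at 12 h, against 0.84, 0.39 and 2.34 at 0 h, a difference of 1.39 ± 0.59, which was -0.17 with slide position as a covariate. Read 48406 differed by 2.41 ± 1.11, from 6.18, 0.32 and -0.77 at 12 h, against -0.55, -0.42 and -0.55 at 0 h. It was above the random probes on no 0 h array, and with those values raised to them it was at least 3.79-fold higher at 12 h. It was the single member marked on array 10, and without that array its measured difference was 0.28. Its only marks were on arrays 3, 8 and 10, so the bound rests on a value that helped to select it.

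**Figure D5:**
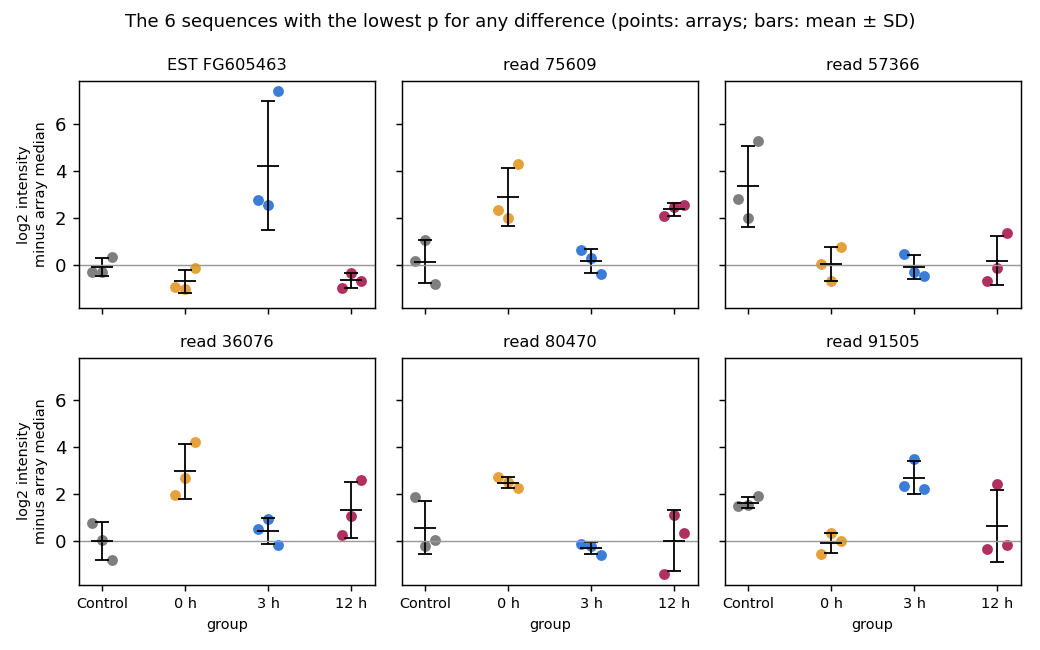
Log2 intensity minus the array median (vertical axis) by group (horizontal axis) for the 6 members with the lowest p for any difference, each point an array and bars the mean ± SD of 3 arrays. EST FG605463 is high on the 3 arrays of 3 h, at 2.52 to 7.37, read 75609 on those of 0 h and 12 h, and read 57366 on those of the control.

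The test of any difference between the 4 groups called 0 of 110 members and 0% of all sequences in limma. The lowest adjusted p, 0.388, was that of EST FG605463. At an unadjusted p under 0.05 it gave 31 members, or 28.2%, against 4.83% of all sequences. The remaining members had adjusted p-values of 0.934 or above. Read 76273, the only member marked on the 3 arrays of 0 h and nowhere else, stood at 2.51, 2.32 and 3.79 at 0 h, against 0.74, 0.48 and 0.42 in the control, -0.92, 1.10 and 1.23 at 3 h and 1.58, 1.04 and 1.97 at 12 h. Its adjusted p was 0.934.

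The authors' deposited table placed many of the members at the top of its columns, and it was made from the same arrays, so it is no separate evidence. Of the 110 members, 41 were among the brightest 1% of its control column, 44 at 0 h, 55 at 3 h and 53 at 12 h.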

How the data were processed

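NimbleGen array files, 1 per array, hold for each sequence an intensity that the authors deposited on a linear scale. RMA is named per the submitters' processing notes, and neither its version nor the files it was applied to are given in the sources used here. A second file from the authors, deposited with a column for each sample, holds log2 values. Its arrays were found by comparing each column with the means of every 3 arrays after quantile normalization of the intensities. A row pooling 45055 random probes gave the background and was left out of all tests.

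Intensities were taken to log2 and centred on each array's median. The linear models and moderated statistics came from limma 3.58.1, run under R 4.3.3, over 95608 sequences and 12 arrays, with Benjamini-Hochberg adjustment within each comparison. The models were tested on simulated data, made of independent normal values with the moderated spreads. For members with wide spreads these are smaller than their own. The simulation thus checks the fitting steps and not the error of the members. For a bound, values were raised to the random probes in any group with no array above them. The number of arrays limits the precision.

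Named were members marked on 6 or more arrays, the 2 highest and 2 lowest moderated t per comparison, the 3 sequences on either side of the limit, and members marked in a single sample. Others named, as in sets sharing arrays, were picked after their values were seen. Members and rules were chosen with earlier results of these data known. Planned marker lists could not be looked up, since no identifier matched a gene. Alternatives are given in the closing section.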

Additional observations from a re-analysis of the deposited data

How the results depend on the processing

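The number of members followed the definition: 397 for the brightest 2%, 32 for the brightest 0.5%, 905 on 2 or more arrays, 29 on 4 or more, 175 at 4-fold over the random probes, and 68 to 109 with an array left out, lowest without array 6. Among the members, calls stayed at 0 except for EST FG605463. It was the 1 member called in the contrast of 3 h with 0 h after quantile normalization (difference 4.67) and with the trended and robust prior, and for any difference under these and with slide position as a covariate. In each of these it was also the only call among all 95608 sequences. Arrays 7, 8 and 9, all of 3 h, made it a member, so these calls test values that selected it. Leaving out an array gave 0 to 1 members in the contrast of 3 h with 0 h and for any difference. It gave 0 in the other 4 comparisons, and up to 2 of all sequences. Without array 10 the difference stayed at 4.92, and only the spread in the fit changed.

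The median difference of the members moved beyond the spread between arrays with slide position as a covariate, to -0.92 for 3 h and -1.26 for 12 h against control and -0.92 for 12 h set against 0 h. Groups fill neighbouring positions, so this covariate is largely confounded with group, and these values do not show how much of a difference is due to position. Between 3 h and 0 h the median difference was 0.20 with the deposited table's arrays and 0.36 in the table. Leaving out an array gave -0.18 to 0.41 for 0 h, -0.32 to 0.02 for 3 h and 0.10 to 0.56 for 12 h against control, then -0.61 to -0.10 for the 3 h and -0.06 to 0.46 for the 12 h arrays set against 0 h. The level over the random probes ranged from 0.68 to 1.04 in the control, 0.56 to 1.31 at 0 h, 0.40 to 0.70 at 3 h and 1.09 to 1.84 at 12 h. The mean share on arrays left out was 11.5% for the brightest 2% and 16.5% for the brightest 0.5%.

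With the deposited table's arrays, and in that table, differences were reversed at 0 h against control for reads 57366 (1.89 and 0.89), 61893 (1.82 and 1.97) and 36076 (-0.72 and -1.06), in the contrast of 3 h with 0 h for read 75609 (0.87 and 1.06) and in that of 12 h with 0 h for read 36076 (0.92 and 1.04). For EST FG605463 at 3 h against control it was -0.30 with those arrays, and -0.45 with slide position as a covariate, which also reversed read 41915 between 12 h and 0 h (-0.17). The cause of these changes was not tested. No paired analysis was possible because the array files carry no replicate numbers shared between groups. The typical interval of a member reached 2.77-fold to either side over 3 arrays per group. Each group is 1 sample, so intervals and p-values may cover the error between arrays only.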
